A study of Mus musculus with 27 samples.

Results

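Levels of 10 genes of the defence against oxidative stress and ferroptosis were followed while mouse embryonic fibroblasts (MEFs) were reprogrammed into induced neurons (iNs). The genes were taken from a list of names that uses no measured value, though it was chosen with earlier results of these data known. All 10 were found among the 54532 genes of the deposited table: Nfe2l2, Keap1, Hmox1, Nqo1, Gclc, Gclm, Slc7a11, Txnrd1, Srxn1, and Gpx4. Bulk RNA-seq had been done on 27 libraries, 3 biological replicates each of 3 genotypes (WT, Per1-/-, and Per2-/-) on days 0, 2, and 4. MEFs came from mouse embryos without head and heart, cells of several embryos were pooled in a dish, and the sex of the embryos was not determined. The mutant mice carried the Per1tm1Drw or the Per2tm1Drw allele of the circadian Period genes. Cells of all 9 groups had received lentiviruses with tetracycline-controlled reprogramming factors and with the transactivator M2rtTA before day 0. Day 0 cells were collected before reprogramming, and the labels call the cells of every day induced neurons. On day 0 medium with serum was exchanged for serum-free N3 medium, which holds insulin, transferrin, selenium, and basic FGF, and doxycycline was added to switch on these factors. The exchange of medium, the induction of the factors, and the time in culture therefore cannot be told apart in any comparison with day 0.

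Cells meet reactive oxygen and electrophiles with a set of genes driven by the transcription factor NRF2, which Nfe2l2 encodes. KEAP1, an adaptor of a ubiquitin ligase, keeps NRF2 low by marking it for degradation until oxidants modify KEAP1. Much of this control is exerted on the protein and is not seen in the level of the Nfe2l2 transcript. NRF2 acts with small MAF proteins at antioxidant response elements of genes for glutathione synthesis, the thioredoxin system, quinone reduction, and heme breakdown. Ferroptosis is a cell death driven by iron and by peroxidised membrane lipids, and GPX4, a selenoprotein, opposes it by reducing these lipids with glutathione. The cystine importer xCT, which Slc7a11 encodes, feeds the synthesis of that glutathione.

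Depth was 15815013 to 24264097 fragments per library, and the least covered gene of the set, Nqo1, still had 125 fragments in its lowest library. The transcripts of the targeted genes were read as well. Per1 was 4.96, 3.23, and 4.15 FPKM (fragments scaled by gene length and library depth) in the Per1-/- libraries of day 0 and 6.33, 5.58, and 5.44 FPKM in WT, a difference that did not pass the test (adjusted p = 0.771). The Per2 transcript was higher under its knockout label: it was 1.87, 2.00, and 1.90 FPKM in the day 0 libraries labelled Per2-/- and 0.906, 0.957, and 0.817 FPKM in WT. The log2 difference was 1.03 (adjusted p = 0.00114). Hence these are named as the libraries labelled Per2-/- throughout. Gene-level values do not show which exons were read, so they check neither allele. By western blotting the paper reported loss of PER1 protein in Per1-/- MEFs and of PER2 protein in Per2-/- MEFs. Neuron markers rose on day 4 in every genotype, 10 of 12 tested, but fibroblast markers stayed abundant, with summed levels of 4445 to 6120 FPKM on day 4 against 131 to 230 FPKM for the neuron markers. Rbfox3, a marker of mature neurons, was at 0 in every day 0 library of WT and Per1-/-. Fibroblast, neuron, and macrophage markers were thus read in the same libraries. Fewer cells of a type and less RNA per cell cannot be told apart in bulk libraries.

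Promoter sequences are shown for the 4 genes in which a motif of the stress response was found close to the start site. RefSeq windows from 250 bases before to 50 bases after the annotated start were found for 8 of the 10 genes, 13 windows in all, on GRCm38.p6. No window was listed for Hmox1 and Gclc. The search covered 3 motifs on both strands: TGACNNNGC, the core of the antioxidant response element, TGAGTCA, the site of AP-1 factors, and TGATGCAA, a site of the C/EBP-ATF type that is known from genes induced by amino acid shortage. A site can match the first and the second motif at once, but none did in the windows of these genes. The motifs were chosen after expression values were known. TGACNNNGC was found in 12.4% of all 32851 windows, TGAGTCA in 5.20%, and TGATGCAA in 0.895%. The 150 bases before the start of each gene are given 5′ to 3′ on the strand of the gene, with the matching letters in capitals.
Gclm, chr3:122245407-122245556, plus strand: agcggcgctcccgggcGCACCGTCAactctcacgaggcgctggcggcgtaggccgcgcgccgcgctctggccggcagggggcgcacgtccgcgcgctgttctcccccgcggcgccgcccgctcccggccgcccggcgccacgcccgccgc
Txnrd1, chr10:82859056-82859205, plus strand: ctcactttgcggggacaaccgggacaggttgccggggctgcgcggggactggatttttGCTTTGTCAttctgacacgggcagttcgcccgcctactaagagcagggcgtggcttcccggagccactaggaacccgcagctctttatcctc
Srxn1, chr2:152105374-152105523, plus strand: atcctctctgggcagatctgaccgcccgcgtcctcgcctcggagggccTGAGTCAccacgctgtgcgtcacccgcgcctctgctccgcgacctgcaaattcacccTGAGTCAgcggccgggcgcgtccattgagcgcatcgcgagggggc
Slc7a11, chr3:50443614-50443763, minus strand: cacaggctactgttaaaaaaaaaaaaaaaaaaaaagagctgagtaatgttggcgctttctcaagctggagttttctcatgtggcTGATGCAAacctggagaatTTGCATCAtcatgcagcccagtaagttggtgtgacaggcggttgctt
In Gclm and Txnrd1 the capitals are 1 match each to TGACNNNGC, read on the opposite strand, and the Txnrd1 window is that of 1 of its 3 annotated starts. In Srxn1 they are 2 copies of TGAGTCA, and a TGACNNNGC match stands downstream of the start. In Slc7a11 they are 2 copies of TGATGCAA, 1 on each strand. The window of Nfe2l2 held a TGACNNNGC match at position -240 from the start, and the windows of Keap1, Nqo1, and Gpx4 held none of the 3 motifs. A match is a description of letters and no evidence of binding.

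To see how the defence genes behaved at the onset of reprogramming, days 2 and 4 were compared with day 0 in each genotype. Of the 10 genes, 8 were lower on both days in all 3 genotypes: Nfe2l2, Hmox1, Nqo1, Gclc, Gclm, Txnrd1, Srxn1, and Gpx4. Slc7a11 was higher on day 4 in all 3 genotypes and was not called on day 2, which in WT depended on the scaling. Keap1 was called in none of the 6 comparisons. A gene was called when its adjusted p (limma on log2(FPKM + 0.1) across 14932 genes, Benjamini-Hochberg) did not exceed 0.05 and the size of its log2 fold change reached 0.58. The 8 genes called lower on day 2 stand against a background of 19.7% of all tested genes called lower in WT, 18.8% in Per1-/-, and 16.8% in the libraries labelled Per2-/-. For day 4 it was 20.9%, 20.4%, and 18.8%. Genes called higher made up 20.8%, 20.8%, and 18.7% on day 2 and 22.9%, 22.6%, and 21.6% on day 4, in the same order of genotypes. The median log2 fold change of the 10 genes was -1.09, -0.93, and -0.96 on day 2 and -1.01, -0.80, and -0.96 on day 4, whereas that of all tested genes was between -0.02 and 0.00. Exact permutation of 3 libraries against 3 cannot give a p below 0.1 for 1 gene, so calls rest on the fit across all genes.

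**Figure D1:**
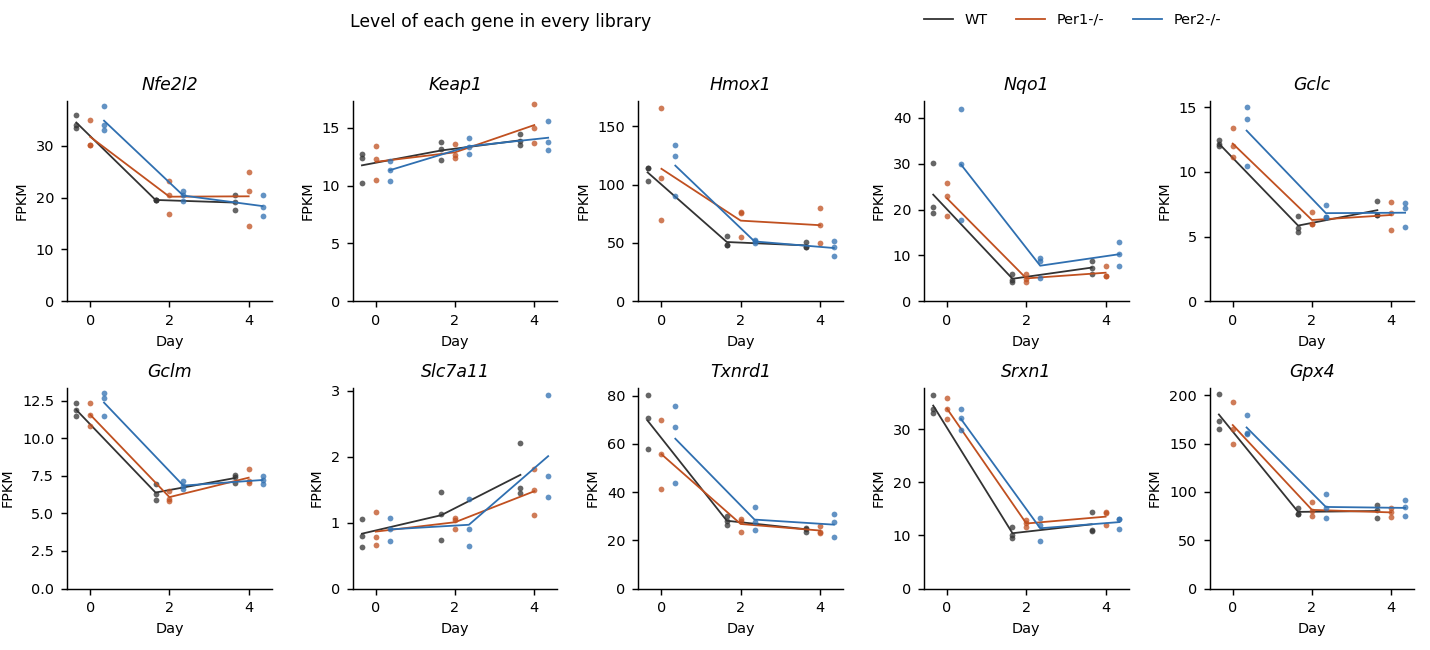
FPKM (y axis, from 0) of each of the 10 genes against the day of reprogramming (x axis, days 0, 2, and 4), with 1 point per library and a line through the mean of 3 libraries for WT, Per1-/-, and the libraries labelled Per2-/-, drawn side by side. Except for Keap1 and Slc7a11 the genes drop between day 0 and day 2 in all 3 genotypes, as in Srxn1 from 29.9-36.4 FPKM to 8.97-13.2 FPKM, and change little afterwards.

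How far the libraries separated was also seen without a model. For 7 of the 10 genes (all that fell but Hmox1) every one of the 9 libraries of day 0 was above all 18 later libraries. Among all tested genes 18.2% separated in that way. The result depended in part on how libraries were scaled. The sum of FPKM was 333295 to 374624 on day 0 and 261289 to 343225 later, and when each library was rescaled to a common sum, the centre of all tested genes moved to medians between 0.25 and 0.41 on the log2 scale. Under that scaling 5564 genes were called higher and 1253 lower on day 2 in WT, in place of 3101 and 2944, and 5485 and 1511 on day 4, in place of 3414 and 3120. The share of calls that were higher thus went from 51.3% to 81.6% on day 2 and from 52.3% to 78.4% on day 4 in WT. It went from 52.5% to 81.8% and from 52.6% to 72.0% in Per1-/-, and from 52.7% to 78.5% and from 53.5% to 71.7% in the libraries labelled Per2-/-. In WT, Per1-/-, and the libraries labelled Per2-/-, 1253, 1182, and 1266 of all 14932 tested genes were then called lower on day 2. On day 4 the counts were 1511, 1823, and 1749. The members called lower were 6, 4, and 6 on day 2 and 5, 5, and 7 on day 4 in the same order. Nqo1, Txnrd1, Srxn1, and Gpx4 were among them in all 6 comparisons. None of the 8 genes turned to a higher level under that scaling.

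The regulators were described first. Nfe2l2 (ENSMUSG00000015839, chr2:75675513-75704641, minus strand, GRCm38), the gene of NRF2 itself, was 33.5, 34.0, and 36.0 FPKM in the WT libraries of day 0, 19.6, 19.6, and 19.5 on day 2, then 20.5, 19.1, and 17.5 on day 4. In Per1-/- it was 34.96, 30.1, and 30.2 FPKM on day 0, 23.2, 16.9, and 20.5 on day 2, then 24.9, 14.6, and 21.3 on day 4. Libraries labelled Per2-/- had 34.0, 33.0, and 37.6 FPKM, then 20.5, 19.3, and 21.3, and then 20.5, 16.4, and 18.2. Day 0 stood apart from the later days in every genotype, and the 2 later days overlapped with each other. Log2 fold changes on day 4 came to -0.86 ± 0.14 in WT, -0.68 ± 0.14 in Per1-/-, and -0.92 ± 0.14 in the libraries labelled Per2-/- (SE, adjusted p = 1.73e-05, 0.000239, and 8.05e-06). After rescaling to a common sum, Nfe2l2 kept its call only on day 4 in the libraries labelled Per2-/-. The Per1-/- calls were lost without replicate 2 of day 2 (log2 fold change -0.54) or replicate 2 of day 4 (-0.46).

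Keap1 (ENSMUSG00000003308, chr9:21229730-21239361, minus strand), whose product restrains NRF2, was never called, and its values on day 4 were slightly above those of day 0. It was 10.2, 12.3, and 12.7 FPKM in WT on day 0, 13.7, 13.1, and 12.2 on day 2, then 14.4, 13.8, and 13.5 on day 4. Per1-/- libraries had 10.4 to 13.4 FPKM, then 12.4 to 13.6, and then 13.7 to 17.0. Those labelled Per2-/- had 10.4 to 12.2 FPKM, then 12.7 to 14.2, and then 13.1 to 15.6. All 3 libraries of day 4 were above those of day 0 in each genotype. Against day 0 the log2 values of day 4 were 0.25, 0.34, and 0.32 (SE 0.10, adjusted p = 0.0367, 0.00628, and 0.0102) in WT, Per1-/-, and the libraries labelled Per2-/-. These were under the fold required for a call. After rescaling to a common sum Keap1 was called higher on day 2 in WT and on day 4 in WT and Per1-/-. The ratio of Nfe2l2 to Keap1 within a library is not touched by scaling. It was 2.90 ± 0.31 on day 0 (SD, n = 9), 1.53 ± 0.15 on day 2, and 1.35 ± 0.26 on day 4, and its lowest value on day 0 (2.45) was above its highest on the later days (1.83).

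Among the 10 genes Nqo1 (ENSMUSG00000003849, chr8:107388225-107403206, minus strand) had the largest decrease on both days in each genotype. It encodes a quinone reductase and is commonly used as a readout of NRF2 activity. Nqo1 was 19.2, 30.1, and 20.5 FPKM in WT on day 0, 5.92, 4.66, and 4.14 on day 2, then 8.89, 7.20, and 5.94 on day 4. In Per1-/- it was 22.9, 25.9, and 18.6 FPKM on day 0, 6.02, 4.77, and 4.18 on day 2, then 7.67, 5.56, and 5.46 on day 4. The libraries labelled Per2-/- were the most spread, with 29.9, 17.8, and 41.9 FPKM on day 0, 9.43, 5.05, and 8.78 on day 2, then 12.9, 7.59, and 10.3 on day 4. On day 2 Nqo1 stood at 21.1% of its day 0 mean in WT, 22.2% in Per1-/-, and 26.0% in the libraries labelled Per2-/-. In log2 terms day 2 differed by -2.21, -2.15, and -1.90 (SE 0.28, adjusted p = 1.17e-06, 1.82e-06, and 9.76e-06). On day 4 the log2 fold changes were -1.64, -1.84, and -1.48. Day 4 means were above day 2 means in all 3 genotypes, but the increase did not pass the test (adjusted p = 0.271, 0.593, and 0.405).

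Hmox1 (ENSMUSG00000005413, chr8:75093621-75100589, plus strand) encodes heme oxygenase 1, which opens the heme ring and releases iron. It was 115, 114, and 103 FPKM in WT on day 0, 48.0, 48.3, and 56.1 on day 2, then 46.2, 46.7, and 50.6 on day 4. Libraries labelled Per2-/- had 125, 89.9, and 134 FPKM on day 0, 49.5, 51.9, and 52.4 on day 2, then 38.4, 51.6, and 46.8 on day 4. The later days were below day 0 without overlap in both. Per1-/- differed in its spread: Hmox1 was 105, 69.5, and 166 FPKM on day 0, 75.4, 55.3, and 76.5 on day 2, then 79.6, 50.3, and 65.7 on day 4, so that later libraries overlapped with the lowest of day 0. The log2 fold changes of day 4 were -1.21, -0.73, and -1.34 (SE 0.22, adjusted p = 7.71e-05, 0.00663, and 2.67e-05) in WT, Per1-/-, and the libraries labelled Per2-/-. The Per1-/- call was lost on day 4 without replicate 3 of day 0 or without replicate 2 of day 4. It was lost on day 2 likewise without replicate 3 of day 0 or replicate 2 of day 2. Over the fits with 1 library left out the Per1-/- log2 fold change ranged from -0.95 to -0.32 on day 2 and from -1.04 to -0.42 on day 4. After rescaling to a common sum both Per1-/- calls were lost and the 4 others were kept.

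Hmox1 is also abundant in macrophages, and these cultures held macrophage transcripts. The summed level of 25 macrophage markers was 243, 415, and 1328 FPKM in the day 0 libraries of Per1-/- in which Hmox1 was 105, 69.5, and 166 FPKM. On day 2 the sum was 755 to 1522 FPKM in Per1-/-, 382 to 625 in WT, and 220.0 to 459 in the libraries labelled Per2-/-. On day 4 it was 1471 to 2570, 743 to 1292, and 564 to 960 FPKM. Of 24 macrophage markers tested, 22, 19, and 11 rose from day 0 to day 4 in Per1-/-, WT, and the libraries labelled Per2-/-, and only Cd163 was at 0 in a group (day 0 of Per1-/-). From day 0 to day 4 the macrophage sum was higher without overlap in WT and Per1-/- and with overlap in the libraries labelled Per2-/-, whereas Hmox1 was lower. On days 2 and 4 the mean of either measure was highest in Per1-/-. The part of macrophages in the level of Hmox1 was not tested.

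**Figure D2:**
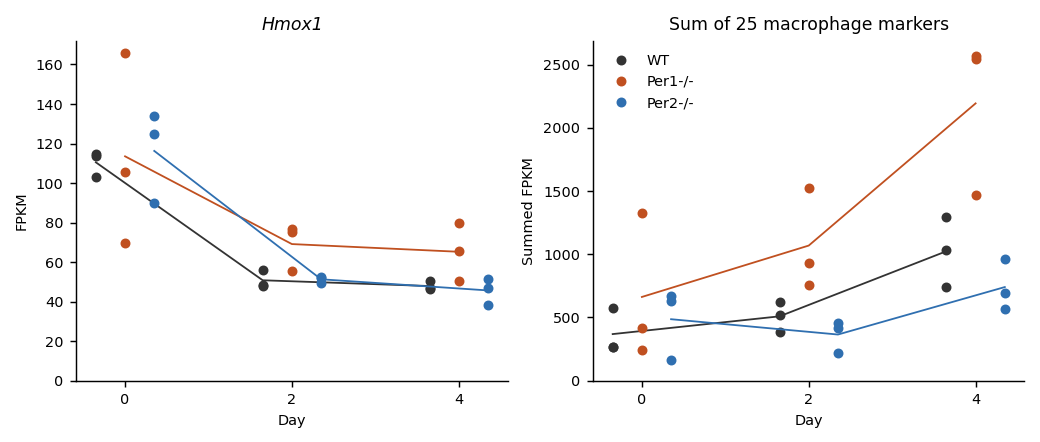
Hmox1 in FPKM (left) and the summed FPKM of 25 macrophage markers (right), both from 0, against the day of reprogramming, with 1 point per library and a line through the mean of 3 libraries. Hmox1 falls after day 0, and on days 2 and 4 its mean is highest in Per1-/- (50.3-79.6 FPKM on day 4), as is the mean of the macrophage sum (1471-2570 FPKM on day 4).

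Glutathione synthesis begins with glutamate-cysteine ligase, of which Gclc (ENSMUSG00000032350, chr9:77754535-77794485, plus strand) encodes the catalytic and Gclm (ENSMUSG00000028124, chr3:122245557-122270732, plus strand) the modifier subunit. Gclc was 12.13, 11.999, and 12.46 FPKM in WT on day 0, 6.59, 5.64, and 5.32 on day 2, then 6.67, 6.68, and 7.78 on day 4. Gclm was 11.4, 11.9, and 12.3 FPKM, then 6.28, 5.90, and 6.97, and then 7.04, 7.44, and 7.57 in the same libraries. Both subunits were thus present at about the same FPKM and dropped together. Their ratio within a library, Gclc to Gclm, was 1.05 ± 0.10 on day 0, 0.984 ± 0.111 on day 2, and 0.935 ± 0.084 on day 4 (SD, n = 9), with overlapping ranges on the 3 days. In Per1-/- Gclc went from 11.1-13.4 FPKM on day 0 to 5.96-6.93 on day 2 and 5.51-7.64 on day 4. Libraries labelled Per2-/- went from 10.4-15.0 FPKM to 6.49-7.44 and 5.70-7.62. The log2 fold changes of Gclc on day 2 were -1.05, -0.94, and -0.93 (SE 0.14) and those of Gclm -0.89, -0.92, and -0.84 (SE 0.08), with adjusted p from 3.26e-09 to 8.66e-06.

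Gclm went from 10.8-12.3 FPKM on day 0 to 5.80-6.50 on day 2 and 7.01-7.94 on day 4 in Per1-/-, and from 11.5-13.0 to 6.61-7.14 and 6.93-7.49 FPKM in the libraries labelled Per2-/-. In both the 3 values of day 0 stood above all later ones. From day 2 to day 4 Gclm differed by 0.20, 0.27, and 0.08 on the log2 scale in WT, Per1-/-, and the libraries labelled Per2-/-. In Per1-/- the adjusted p was 0.0434, but the required fold was not reached. A TGACNNNGC match was found in the windows of Gclm, Nfe2l2, and Srxn1 and in a window of Txnrd1, and in 12.4% of all windows. These 4 genes fell, and so did Nqo1 and Gpx4, whose windows held none of the motifs. Whether a match bears on the decrease was not tested. After rescaling to a common sum Gclm was called in none of the 6 comparisons with day 0, though its direction stayed lower. Gclc lost its call in WT on day 4 and in Per1-/- on day 2.

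Slc7a11 (ENSMUSG00000027737, chr3:49892526-50443614, minus strand), the light chain of the cystine importer, was the least abundant of the genes and the exception to the decrease. It was 0.638, 1.06, and 0.799 FPKM in WT on day 0, 1.14, 1.47, and 0.732 on day 2, then 1.53, 2.21, and 1.44 on day 4. In Per1-/- it was 1.16, 0.778, and 0.657 FPKM on day 0, 0.907 to 1.07 on day 2, then 1.12, 1.82, and 1.49 on day 4. Libraries labelled Per2-/- had 1.07, 0.728, and 0.897 FPKM on day 0, 1.35, 0.906, and 0.645 on day 2, then 2.93, 1.71, and 1.39 on day 4. Day 4 was above day 0 without overlap in WT and in the libraries labelled Per2-/-, and overlapped in Per1-/-. The log2 fold changes of day 4 were 0.97, 0.72, and 1.03 (SE 0.30, adjusted p = 0.00786, 0.0423, and 0.00566). Its coverage was 135 fragments in the lowest library.

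The Per1-/- call of Slc7a11 was fragile. It was lost when any 1 of 4 of the 6 libraries was left out (replicates 2 and 3 of each day), with log2 fold changes from 0.56 to 0.70 in these 4 fits. In the libraries labelled Per2-/- the call was lost without replicate 1 of day 4, and the lowest value was 0.73. The WT call was kept in all 6 such fits, but was lost with a pseudocount of 1 (0.57). After rescaling to a common sum Slc7a11 was called higher on day 4 in every genotype and also on day 2 in WT. Slc3a2, named after its values were seen because it encodes the heavy chain that pairs with xCT, was 46.9, 44.8, and 54.0 FPKM in WT on day 0 and 51.3, 61.0, and 38.3 on day 4. Its log2 fold changes on day 4 were 0.03, -0.06, and -0.13 (adjusted p = 0.892, 0.742, and 0.470).

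Txnrd1 (ENSMUSG00000020250, chr10:82833951-82897712, plus strand) encodes the cytosolic thioredoxin reductase, a selenoprotein that keeps thioredoxin reduced. It was 70.9, 80.4, and 57.8 FPKM in WT on day 0, 30.0, 28.2, and 26.2 on day 2, then 25.2, 24.9, and 23.7 on day 4. In Per1-/- it was 41.3, 70.0, and 56.0 FPKM, then 23.6 to 28.9, and then 22.9 to 25.8. Those labelled Per2-/- had 75.7, 43.8, and 67.1 FPKM, then 24.3 to 33.8, and then 21.2 to 30.9. The spread over replicates was wider on day 0 than afterwards, and no later library reached the lowest of day 0. For day 4 the log2 fold changes were -1.49, -1.18, and -1.21 (SE 0.19, adjusted p = 1.03e-06, 1.97e-05, and 1.65e-05).

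Srxn1 (ENSMUSG00000032802, chr2:152105516-152111376, plus strand) encodes sulfiredoxin, which restores peroxiredoxins that have been over-oxidised. It was 33.9, 33.1, and 36.4 FPKM in WT on day 0, 11.6, 10.1, and 9.55 on day 2, then 14.4, 11.04, and 10.8 on day 4. Those of Per1-/- had 31.9, 35.8, and 33.8 FPKM, then 12.4, 11.5, and 12.9, and then 14.4, 11.9, and 14.3. Libraries labelled Per2-/- had 33.7, 29.9, and 32.1 FPKM, then 13.2, 8.97, and 11.9, and then 13.1, 11.2, and 13.2. Srxn1 had the next largest decrease after Nqo1 on day 2, with much tighter replicates. For day 2 the log2 fold changes were -1.72, -1.46, and -1.50 (SE 0.12, adjusted p = 5.02e-10, 5.78e-09, and 4.01e-09), and on day 4 they were -1.51, -1.32, and -1.35.

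Gpx4 (ENSMUSG00000075706, chr10:80047166-80056439, plus strand), the lipid peroxidase at the centre of ferroptosis defence, was the most abundant of the 10 genes on every day. It was 201, 173, and 165 FPKM in WT on day 0, 83.3, 77.1, and 77.4 on day 2, then 80.9, 86.5, and 73.1 on day 4. In Per1-/- it went from 149, 165, and 193 FPKM to 74.6, 80.0, and 89.5 and then 79.5, 73.7, and 83.1. In those labelled Per2-/- it went from 179, 159.99, and 161 FPKM to 97.3, 72.5, and 83.3 and then 91.1, 75.03, and 84.1. The level thus fell to 44.0-50.7% of the day 0 mean by day 2 and stayed there. The log2 fold changes on day 4 were -1.16, -1.10, and -0.9999 (SE 0.11, adjusted p = 1.73e-08, 4.63e-08, and 1.76e-07).

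**Figure D3:**
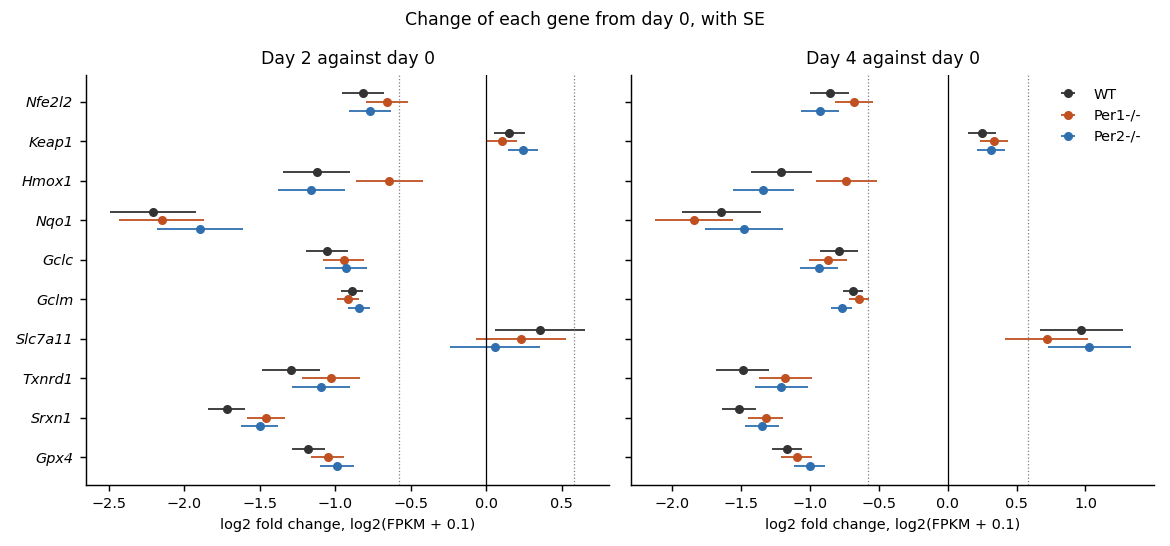
Log2 fold change on log2(FPKM + 0.1) (x axis) of each gene (y axis) on day 2 (left) and day 4 (right) against day 0, with points for WT, Per1-/-, and the libraries labelled Per2-/- and bars for the SE of the fit over 3 libraries a group. Dotted lines mark 0.58 in either direction; 8 genes lie beyond the lower line on both days, and Slc7a11 lies beyond the upper line on day 4.

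The order of levels could be compared between genes because FPKM is given per length. On day 0 it ran Gpx4 (149-201 FPKM), Hmox1 (69.5-166), Txnrd1 (41.3-80.4), Nfe2l2 (30.1-37.6), Srxn1 (29.9-36.4), Nqo1 (17.8-41.9), Gclc (10.4-15.0), Gclm (10.8-13.0), Keap1 (10.2-13.4), and Slc7a11 (0.638-1.16), with the range of 9 libraries for each. Nfe2l2, Srxn1, and Nqo1 overlapped with one another, as did Gclc, Gclm, and Keap1. On day 2 Keap1 (12.2-14.2 FPKM) stood above Nqo1 (4.14-9.43), Gclc (5.32-7.44), and Gclm (5.80-7.14) without overlap. On day 0 Nqo1 had been above Keap1, and Gclc and Gclm had overlapped with it. Keap1 itself was not called on day 2, though it was called higher in WT after rescaling to a common sum.

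Between days 2 and 4 the levels were largely settled. None of the 10 genes was called in any genotype, against 3.21% of all tested genes in WT, 2.44% in Per1-/-, and 4.06% in the libraries labelled Per2-/-. At an unadjusted p of 0.05, 4 of the 30 values passed. Of all 14932 tested genes 2977, 2983, and 3380 passed it, in the same order of genotypes. The largest of the 30 values was that of Slc7a11 in the libraries labelled Per2-/-, with a log2 fold change of 0.97 ± 0.30 (SE, adjusted p = 0.0556). It was called with a pseudocount of 1 (adjusted p = 0.0437), with voom weights on fragments (0.0359), and with the replicate number as a block (0.0115).

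The genotypes were then compared on each day. None of the 10 genes was called in any of the 9 comparisons by limma, and 4 of the 90 values passed an unadjusted p of 0.05. In each comparison 410 to 1974 of the 14932 tested genes passed that p. Few genes of any kind were called. Between Per1-/- and WT they made up 0.0134% of those tested on day 0, 0.0067% on day 2, and 0.0268% on day 4. Between the libraries labelled Per2-/- and WT they made up 0.0067%, 0.0268%, and 0.0067%, and between Per1-/- and the libraries labelled Per2-/- 0.0201%, 0.0737%, and 0.556%. The last of these, 66 genes higher and 17 lower in Per1-/-, depended on the processing: it was 9 and 10 after rescaling to a common sum and 231 and 35 with voom weights. For 66 of the 90 values the whole 95% interval of the difference lay within 0.58 on the log2 scale. In the other 24 the interval reached past that size, so a difference of 0.58 was not excluded. The paper tested these libraries with another method and reported many more genes that differed between genotypes. In the fit used here none of the 24 tested macrophage markers was called between Per1-/- and WT on day 2 or day 4. Their median log2 difference was nevertheless 0.99 on day 2 and 1.04 on day 4. Few calls in this fit thus do not show that the genotypes were alike.

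Nqo1 and Hmox1 had the largest differences between genotypes. Nqo1 was lower in Per1-/- than in the libraries labelled Per2-/- on day 4 by a log2 difference of -0.70 (95% interval -1.29 to -0.11, adjusted p = 0.276), with 5.46 to 7.67 against 7.59 to 12.9 FPKM, which overlapped. The libraries labelled Per2-/- were above WT in Nqo1 by 0.61 on day 2 (interval 0.02 to 1.21, adjusted p = 1.00). Hmox1 in Per1-/- was above WT by 0.43 on day 2 (interval -0.03 to 0.89, adjusted p = 0.999) and by 0.42 on day 4 (interval -0.04 to 0.88, adjusted p = 0.859). Against the libraries labelled Per2-/- it was higher by 0.41 and 0.50 (adjusted p = 0.678 and 0.324). Gclm, the gene with the tightest replicates, differed by at most 0.17 in size in any of the 9 comparisons, with intervals of ± 0.16.

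**Figure D4:**
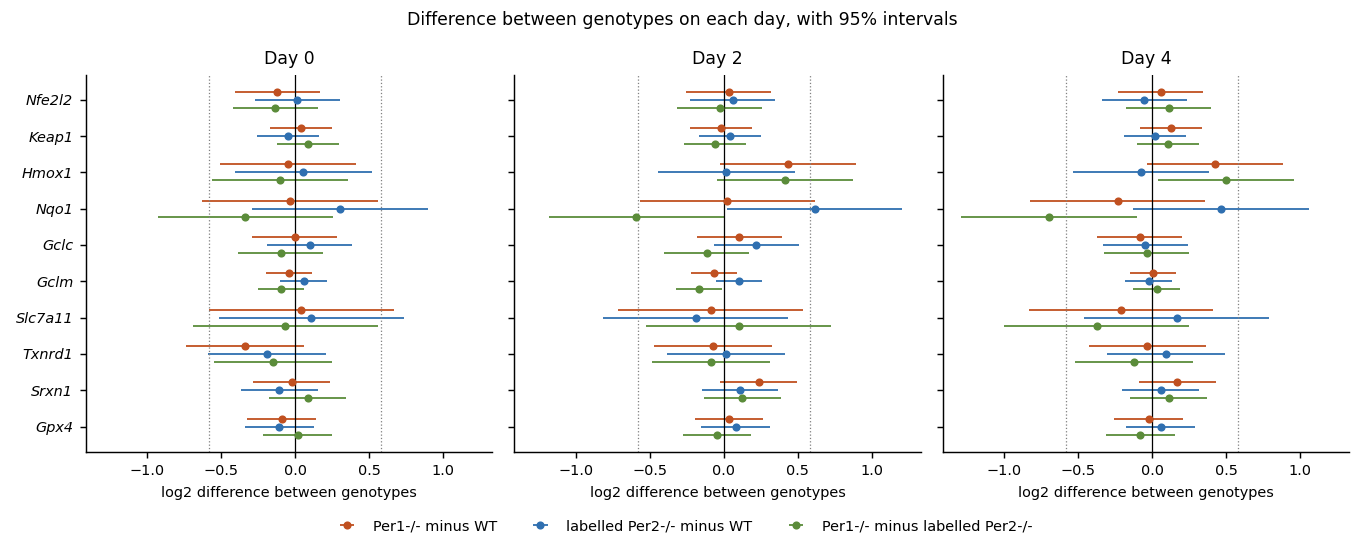
Log2 difference between genotypes (x axis) of each gene (y axis) on days 0, 2, and 4, with 95% intervals of the fit over 3 libraries a group; colours mark Per1-/- minus WT, the libraries labelled Per2-/- minus WT, and Per1-/- minus those. Dotted lines mark 0.58 in either direction; all 90 points but 3 lie between them, and none was called.

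Whether the change over days differed between a mutant and WT was tested directly. None of the 10 genes passed in the 4 tests of the difference of change (Per1-/- or the libraries labelled Per2-/- against WT, to day 2 or day 4), and no gene of the whole table did (0% of those tested in each). At an unadjusted p of 0.05 none of the 40 values of these genes passed, whereas 306 to 500 of the 14932 tested genes did. The largest was Hmox1 in Per1-/- against WT to day 2, at 0.48 (interval -0.17 to 1.13). The 2 mutant comparisons share the WT libraries.

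The genes that fell followed each other closely over the 9 groups. Pearson's r between any pair of the 8 on mean log2(FPKM + 0.1) was 0.82 to 0.99 (28 pairs, 9 group means), and Keap1 had r of -0.89 to -0.74 with them. Slc7a11 had r of -0.73 to -0.46 with the 8 and of 0.80 with Keap1. Each point is a mean of the same 3 libraries for both genes, and most of the range is the step from day 0 to day 2, so these values describe a shared step. Among all tested genes the nearest pattern to each was that of Arhgdib for Nfe2l2, Ppp1r9b for Keap1, Tgoln1 for Hmox1, Ndrg2 for Nqo1, Aida for Gclc, Nsf for Gclm, Mmp9 for Slc7a11, Nmt2 for Txnrd1, Sypl for Srxn1, and Bhlhe40 for Gpx4. Their r ranged from 0.978 to 0.999.

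Other genes of the pathway were read from lists. These lists were chosen with earlier results of these data known, so they describe the pathway and give no independent support. Of 15 regulators of NRF2, all tested, 3, 4, and 3 were called lower on day 4 in WT, Per1-/-, and the libraries labelled Per2-/- and 0, 0, and 1 higher, with medians of -0.31, -0.29, and -0.33. The lower counts are near the background of 20.9%, 20.4%, and 18.8% of all tested genes and are no result about the list. Maff, Mafk, and Sqstm1 were lower in all 3 genotypes. After rescaling to a common sum 2 genes of the list were called lower in all 3 and 1 higher. With Gm23935, a gene of 57 bases, left out of that sum, 1 was lower and 2 were higher. Maff, a small MAF partner of NRF2, was 22.4, 14.5, and 20.4 FPKM in WT on day 0 and 3.46 to 3.73 on day 4, with log2 fold changes of -2.35, -2.66, and -2.22. Mafk, another small MAF, was 11.7 to 15.7 FPKM and then 4.87 to 5.98 in WT, with -1.30, -0.92, and -1.15. Sqstm1, the gene of the autophagy receptor p62 that binds KEAP1, was 156 to 172 FPKM and then 80.8 to 81.7 in WT, with -1.01, -0.75, and -0.91, of which the Per1-/- value was no longer a call after rescaling (-0.48). After rescaling to a common sum the median of this list was 0.09, -0.05, and -0.08, beside 0.37, 0.26, and 0.25 for all tested genes. The sign of the list median in WT thus depends on the scaling, and the median lay below that of all tested genes under both.

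Among 42 enzymes known as NRF2 targets, the 10 genes left out, 34 were tested. On day 4, 16, 14, and 16 were called lower, beside 20.9%, 20.4%, and 18.8% of all tested genes. Those called higher were 4, 4, and 3, beside 22.9%, 22.6%, and 21.6%. The medians of the list were -0.50, -0.41, and -0.45 beside about 0 for all tested genes. After rescaling, 11, 9, and 14 were called lower, beside 1511, 1823, and 1749 of all 14932 tested genes. Higher calls were then 9, 6, and 8, beside 5485, 4687, and 4434. With Gm23935 left out of the rescaled sum, 11, 8, and 11 were called lower, beside 1499, 1513, and 1489 of all tested genes. Higher calls were then 9, 12, and 8, beside 5507, 5360, and 4998. In all 3 genotypes 14 fell, and 9 after rescaling. With Gm23935 left out as well, 8 fell and 7 rose in all 3. Prdx6, a peroxiredoxin that reduces lipid peroxides, went from 48.9-70.4 FPKM in WT on day 0 to 13.7-17.5 on day 4, with log2 fold changes of -1.91, -1.88, and -1.88. Txn1, thioredoxin, went from 225-276 FPKM to 76.8-87.3, with -1.59, -1.61, and -1.50. Abcc1, an exporter of glutathione conjugates, had -1.52, -1.31, and -1.42. The only one that rose in all 3 (1 of 5 after rescaling, 1 of 7 with Gm23935 left out as well) was Gstm1, a glutathione transferase, from 16.3-22.5 to 31.0-40.4 FPKM in WT, with 0.95, 0.67, and 0.90 (adjusted p = 0.00181, 0.0197, and 0.00293). Gstm1 belongs to a family of similar genes among which fragments can be split.

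Of 31 genes of iron handling and ferroptosis, 29 were tested. On day 4, 11 were called lower in each genotype, beside 20.9%, 20.4%, and 18.8% of all tested genes. Those called higher were 1, 1, and 0, beside 22.9%, 22.6%, and 21.6%. The medians of the list were -0.54, -0.56, and -0.48. After rescaling 8 were called lower in each, beside 1511, 1823, and 1749 of all 14932 tested genes. Higher calls were then 3, 3, and 0, beside 5485, 4687, and 4434. The medians of the list were then -0.14, -0.29, and -0.23. Of the list 8 genes fell in all 3 genotypes, and 7 after rescaling. With Gm23935 left out of the rescaled sum, 6 fell and 1 rose in all 3. Ptgs2, which encodes cyclooxygenase 2 and is often read as a marker of ferroptosis, was 146, 112, and 97.8 FPKM in WT on day 0, 4.11, 2.86, and 1.63 on day 2, then 0.678, 0.481, and 0.691 on day 4. Its log2 fold changes were -7.37, -7.36, and -6.61. Tfrc, the transferrin receptor that brings iron into the cell, went from 20.9-33.7 FPKM in WT on day 0 to 3.95-4.74 on day 2 and 5.69-6.40 on day 4, with -2.21, -2.12, and -2.31 on day 4. Por, a reductase that can drive lipid peroxidation, went from 34.7-41.9 to 13.2-14.3 FPKM in WT, with -1.51, -1.30, and -1.57.

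Of 22 selenoproteins and related genes other than Gpx4 and Txnrd1, 19 were tested. Among them Gpx1 and Txnrd2 also stand in the list of NRF2 targets, and Gpx1 is counted in both lists among those that fell. On day 4, 8, 9, and 8 were called lower, beside 20.9%, 20.4%, and 18.8% of all tested genes. Those called higher were 1, 1, and 1, beside 22.9%, 22.6%, and 21.6%. The medians of the list were -0.54, -0.41, and -0.39. After rescaling 4, 5, and 7 were called lower, beside 1511, 1823, and 1749 of all 14932 tested genes. Higher calls were then 2 in each, beside 5485, 4687, and 4434. In all 3 genotypes 7 fell (3 after rescaling), led by Sephs2, which makes the selenium donor, Msrb1, a methionine sulfoxide reductase, and Selenoh. With Gm23935 left out of the rescaled sum, 2 fell and 2 rose in all 3. Sephs2 had log2 fold changes of -1.19, -1.32, and -1.37, Msrb1 of -1.42, -1.36, and -1.05, and Selenoh of -0.97, -1.08, and -0.96. After rescaling the WT value of Selenoh was -0.57, no longer a call. Selenop, the secreted selenium carrier, rose from 11.2-13.6 to 62.5-136 FPKM in WT, from 7.05-30.1 to 153-223 in Per1-/-, and from 12.5-21.0 to 51.3-73.7 in the libraries labelled Per2-/-.

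**Figure D5:**
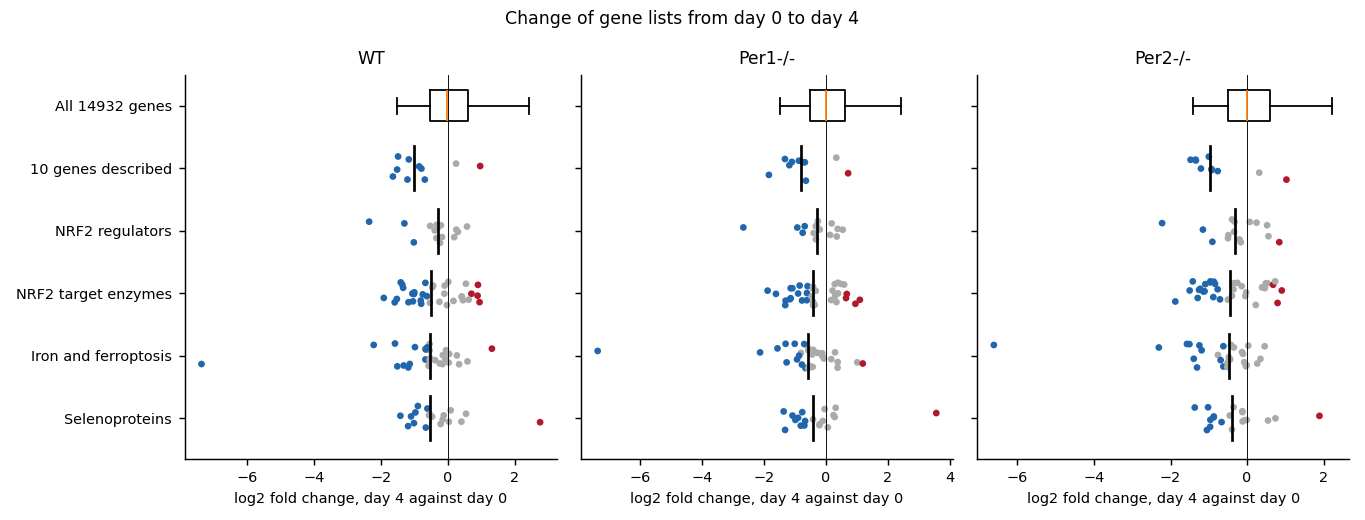
Log2 fold change of day 4 against day 0 (x axis) of the 10 genes and of the tested genes of 4 lists (y axis) in WT, Per1-/-, and the libraries labelled Per2-/-, with 1 point per gene (blue, called lower; red, called higher; grey, not called) and a black line at the median of each list. The box above shows all 14932 tested genes (median, quartiles, and whiskers at the 5th and 95th percentiles); the medians of the 4 lists lie between -0.56 and -0.29, and that of the 10 genes lies between -1.01 and -0.80.

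Of the list genes, 3 were called between genotypes, all between Per1-/- and the libraries labelled Per2-/-. Selenop on day 4 was higher in Per1-/- (153 to 223 against 51.3 to 73.7 FPKM, log2 difference 1.61, adjusted p = 0.0447), and the macrophage sum was higher in the same libraries. Blvra, the biliverdin reductase that acts after heme oxygenase, was also higher on day 4 (9.27 to 11.9 against 5.79 to 7.34 FPKM, 0.73, adjusted p = 0.0133). Steap3, a ferrireductase, was lower on day 0 (4.35 to 7.15 against 14.1 to 22.5 FPKM, -1.62, adjusted p = 0.0387). These calls were not stable. That of Selenop was lost when any 1 of the 6 libraries was left out (adjusted p from 0.0544 to 0.187) and after rescaling (0.127). Those of Blvra and Steap3 were lost with only the compared groups fitted, and with 3 and 4 of the 6 libraries, each left out in turn. Rescaling ended the call of Blvra (adjusted p = 0.0867), and a replicate block that of Steap3 (0.193). The part of macrophages in these differences was not tested.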

How the data were processed

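Bulk RNA-seq libraries (unstranded, paired-end) of 27 samples were used. Per the labels and the study's methods, reads were aligned to GRCm38 with HISAT2 2.0.5 and counted with featureCounts 1.5.0-p3, and the authors deposited FPKM for 54532 genes. Strand was not recorded, so genes that overlap on opposite strands share fragments. Solving each deposited value for fragments with the gene length gave whole numbers (tolerance 0.01) for 100% of values in every library, with a size factor included.

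Values were tested as log2(FPKM + 0.1) with limma 3.58.1 (R 4.3.3, trend = TRUE) in 1 model of 9 groups. Genes under a mean of 0.5 FPKM over all libraries were left out, which kept 14932 genes, among them the 10 described. The test was checked on simulated data. P-values and SE use 1 spread per gene, pooled over the 9 groups and moderated across genes, not that of the compared groups alone. It rests on 3 samples a group, as labelled, that may share pooled embryos. Named list genes were up to 3 per direction with the largest change in all 3 genotypes, those called between genotypes, and for each of the 10 the nearest pattern. The 10 genes, lists, and tests were chosen with earlier results of these data known. Alternatives were other pseudocounts, filters, scalings, voom on recovered fragments (which called 3435 genes higher and 3167 lower on day 4 in WT), the compared groups only, a replicate block, no minimum fold, and leaving out each library. Endothelial and erythroid markers, summing to at most 11.8 and 1.1 FPKM, were read as a check.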

Additional observations from a re-analysis of the deposited data

How the results depend on the processing

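Each count of called genes was recomputed under the alternatives. After rescaling FPKM to a common sum, the calls of all tested genes moved too. Lower calls were 1182 in Per1-/- on day 2, 1823 in Per1-/- on day 4, and 1511 in WT on day 4. In the main fit they were 2811, 3043, and 3120. The members called lower after rescaling were 4 in Per1-/- on day 2, 5 in Per1-/- on day 4, and 5 in WT on day 4. Those called higher were 2 in WT on day 2, 2 in WT on day 4, and 2 in Per1-/- on day 4. Without Gm23935, a gene of 57 bases that took 3.82% to 25.03% of the FPKM sum (an alternative chosen after seeing the data), the lower counts were 4, 4, and 5 and the higher counts 1, 2, and 2, with 1 on day 2 and 2 on day 4 in the libraries labelled Per2-/-. Of all 14932 tested genes 1188, 1513, and 1499 were then called lower in the same order. Those called higher were 5528, 5507, and 5360, with 4746 and 4998 in the libraries labelled Per2-/-. With no minimum fold change, 2 members were called higher on day 4 in each genotype and 1 on day 2 in the libraries labelled Per2-/-, and 1 between days 2 and 4 in Per1-/-. The Per1-/- call of Slc7a11 on day 4 was lost (0 called higher) with a pseudocount of 1, no filter, voom weights, or only the compared groups, and the WT call (0) with a pseudocount of 1. Fitting only the compared groups also ended both Per1-/- calls of Hmox1. A pseudocount of 1 or voom weights gave 1 call between days 2 and 4 in the libraries labelled Per2-/-.

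Leaving out 1 library gave 6 to 8 called lower in Per1-/- on either day, 0 to 1 called higher on day 4 in Per1-/- and in the libraries labelled Per2-/-, and 0 to 1 between days 2 and 4 in the latter (1 without their replicate 1 of day 2). Nfe2l2 lost its Per1-/- calls without replicate 2 of day 2 (-0.54) or of day 4 (-0.46). The small day 2 value of Slc7a11 in the libraries labelled Per2-/- (0.06) reversed to -0.07 without replicate 2 of day 0 and to -0.19 without replicate 1 of day 2. The cause of these changes was not tested. No other direction reversed among the member changes from day 0.

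Replicate numbers were not taken as pairs. Deviations of same-numbered samples correlated at -0.02 to 0.29 over days within a genotype. Samples of 1 day were checked against those of another day. In 24 of 27 such checks the best correlation was with the own number, a hint from the data and not from the design. Over genotypes the correlations were -0.26 to 0.19, and in 7 of 27 checks the best correlation was with the own number. With the replicate block, 1 gene was called between days 2 and 4 in the libraries labelled Per2-/- in place of 0, and no other count of members changed. Recomputed size factors, a pseudocount of 0.01, and a filter at a mean of 1 FPKM moved no count beyond 1.5 times.

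Over all tested genes, the day 4 comparison of Per1-/- with the libraries labelled Per2-/- gave 66 calls higher and 17 lower, 9 and 10 after rescaling to a common sum, and 231 and 35 with voom weights; on day 2 it gave 9 and 2, 4 and 1, and 5 and 2.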
